A study of Rattus norvegicus with 6 samples.

Results

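The NADPH oxidase subunits described here are 7 genes, Nox4, Cyba, Cybb, Ncf1, Ncf4, Rac2 and Duox2, of the 14217 genes that had a probe set of their own on the arrays. They were measured in kidney tissue of 3 heterozygous cystic Cy/+ and 3 wild-type +/+ male Han:SPRD rats, with 1 oligonucleotide array per sample. Cy/+ rats carry 1 mutant copy of Anks6 in every cell and develop polycystic kidneys, and the +/+ rats of the same strain were their controls, and no treatment is named for either group. The labels give an age of 10 weeks for both genotypes, while the methods of the study give a younger age, and no source used here says that each sample came from a separate rat, so that p-values measure the spread between samples, which may be technical. The members were taken by the gene symbol that the platform annotation gives to a single-gene probe set. The 7 genes had 9 such probe sets, and each gene was represented by its brightest one. The genes were chosen with their difference between Cy/+ and +/+ kidneys known, so their own differences are given as a description, without a test.

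NADPH oxidases are membrane enzymes that carry electrons from NADPH across a membrane to oxygen and so make superoxide or hydrogen peroxide. Nox4 is a catalytic subunit that was first described in the kidney, is abundant in the tubules and is active without cytosolic helper proteins. The phagocyte oxidase has another catalytic subunit, encoded by Cybb, which is switched on when cytosolic subunits, those encoded by Ncf1 and Ncf4 among them, and a Rac GTPase move to the membrane. Cyba encodes p22phox, the small membrane subunit that stabilizes both of these catalytic subunits, and Duox2 encodes a dual oxidase of epithelia such as the thyroid that works without it.

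The start regions of Nox4, Cyba and Cybb are shown because these genes encode the catalytic subunits and shared partner whose signals moved apart between the genotypes. Each run holds 250 bases before and 50 bases from the annotated gene start, 5′ to 3′ on the strand of the gene, from RefSeq on the rat assembly GRCr8. Capitals mark the letters GGGCGG, the GC box, or GAGGAA, a core that binds ETS factors such as PU.1, on either strand.
Nox4, chr1:150313639-150313938, plus strand: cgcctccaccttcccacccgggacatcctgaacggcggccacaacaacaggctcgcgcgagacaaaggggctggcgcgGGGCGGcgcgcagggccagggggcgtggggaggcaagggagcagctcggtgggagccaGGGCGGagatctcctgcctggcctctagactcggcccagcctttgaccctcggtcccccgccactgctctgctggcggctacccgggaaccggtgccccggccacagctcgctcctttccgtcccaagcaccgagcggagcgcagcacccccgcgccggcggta
Cyba, chr19:67404165-67404464, minus strand: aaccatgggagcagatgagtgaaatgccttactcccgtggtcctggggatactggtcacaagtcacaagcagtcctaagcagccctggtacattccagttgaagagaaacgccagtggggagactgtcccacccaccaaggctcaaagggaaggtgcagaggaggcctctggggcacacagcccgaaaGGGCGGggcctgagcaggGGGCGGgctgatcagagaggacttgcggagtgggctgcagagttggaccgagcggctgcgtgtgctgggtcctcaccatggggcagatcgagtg
Cybb, chrX:16065016-16065315, minus strand: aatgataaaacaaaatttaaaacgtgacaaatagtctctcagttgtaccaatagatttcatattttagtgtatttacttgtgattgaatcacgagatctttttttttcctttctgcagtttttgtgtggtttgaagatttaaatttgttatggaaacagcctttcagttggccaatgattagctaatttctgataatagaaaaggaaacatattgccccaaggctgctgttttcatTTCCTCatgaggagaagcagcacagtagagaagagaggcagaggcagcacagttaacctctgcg

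The start region of Nox4 was 73.0% G and C, that of Cyba 61.0% and that of Cybb 35.7%, against a median of 51.7% over 33469 rat start regions of the same length. Nox4 and Cyba each held 2 GGGCGG matches, which 33.1% of these regions hold at least once, and Cybb held none. The match to GAGGAA in Cybb lay 14 bases before the start, and 27.6% of regions hold one. Cybb also held a match to TGANTCA, not in capitals above, 166 bases before the start, and 7.33% of regions hold one. No match to TTCNNNGAA, the STAT motif, was found in the 3 regions. The table used here also held the start regions of Ncf1 and Duox2, with 1 GGGCGG match each. That of Duox2 held matches to TGANTCA and TATAAA too. Matches are a description of letters, and the arrays do not measure binding.

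The signals are linear intensities in arbitrary units that cannot be compared between probe sets. Probe sets entered the fit where their average log2 signal was not under the 40th percentile of all averages, which equals a signal of 77.8 and is called the filter level here. Of the 7 subunit genes 6 passed and Duox2 did not. The comparison of the genotypes was fitted with limma over all 18625 probe sets that passed and called at a Benjamini-Hochberg adjusted p under 0.05. RNA of kidney tissue, a mixture of cell types, was measured, so fewer cells of a type and less RNA per cell cannot be told apart.

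Nox4 had a signal of 157, 74.1 and 108 in the 3 Cy/+ kidneys, against 2290, 1700 and 1923 in the 3 +/+ kidneys. Every Cy/+ kidney lay far below every +/+ kidney, and 1 Cy/+ kidney lay below the filter level. The mean was 113 ± 41.7 in Cy/+ and 1971 ± 298 in +/+ kidneys (SD, n = 3 each), and the log2 difference, the mean log2 signal of Cy/+ minus that of +/+ kidneys, was -4.18. This is 18.2-fold lower in Cy/+ by geometric means, on which all folds and log2 differences here rest. Only 15 of the 10645 genes tested had a lower log2 difference.

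Cyba, the gene of the partner that Nox4 and the phagocyte oxidase share, was lower in Cy/+ kidneys too, though less so than Nox4. Its brighter probe set gave 2107, 1306 and 1081 in Cy/+ kidneys, against 4555, 3937 and 4397 in +/+ kidneys, with no overlap. The mean was 1498 ± 539 in Cy/+ and 4296 ± 321 in +/+ kidneys (SD, n = 3 each), a log2 difference of -1.58. The other probe set of Cyba lay below the filter level in all samples, at 48.6 to 49.9 in Cy/+ and 43.8 to 47.5 in +/+ kidneys, and gives no fold.

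Cybb, the catalytic subunit of the phagocyte oxidase, was higher in the Cy/+ kidneys. The brighter probe set gave 775, 603 and 589 in Cy/+ kidneys, against 212, 182 and 232 in +/+ kidneys, so that the lowest Cy/+ kidney lay above the highest +/+ kidney. The mean was 656 ± 103 in Cy/+ and 209 ± 25.1 in +/+ kidneys (SD, n = 3 each), a log2 difference of 1.65. The dimmer probe set of Cybb did not follow it, at 63.0 to 81.9 in Cy/+ and 69.2 to 75.4 in +/+ kidneys, with both means below the filter level.

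Rac2, the Rac GTPase of blood cells that joins the phagocyte oxidase, was also higher. It gave 1406, 1748 and 1183 in Cy/+ kidneys, against 456, 411 and 512 in +/+ kidneys. The groups did not overlap, and the log2 difference was 1.64, close to that of Cybb. The mean was 1446 ± 285 in Cy/+ and 459 ± 50.6 in +/+ kidneys (SD, n = 3 each).

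Ncf4 and Ncf1 encode the cytosolic subunits p40phox and p47phox, the second of which organizes the active complex. Ncf4 gave 241, 219 and 219.8 in Cy/+ kidneys, against 117, 128 and 132 in +/+ kidneys. The groups were apart, and the spread within each was small, at 227 ± 12.3 in Cy/+ and 126 ± 8.02 in +/+ kidneys (SD, n = 3 each), with a log2 difference of 0.85. Ncf1 gave 76.5, 89.2 and 86.8 in Cy/+ kidneys, against 86.5, 103 and 67.5 in +/+ kidneys. The Ncf1 groups overlapped, both means lay close to the filter level, and the log2 difference was -0.01, so that a difference of Ncf1 was not detectable here.

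Duox2 was below the filter level in every sample, at 30.0, 32.6 and 29.8 in Cy/+ kidneys, against 29.2, 35.1 and 30.1 in +/+ kidneys. The groups overlapped and no fold is given.

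**Figure D1:**
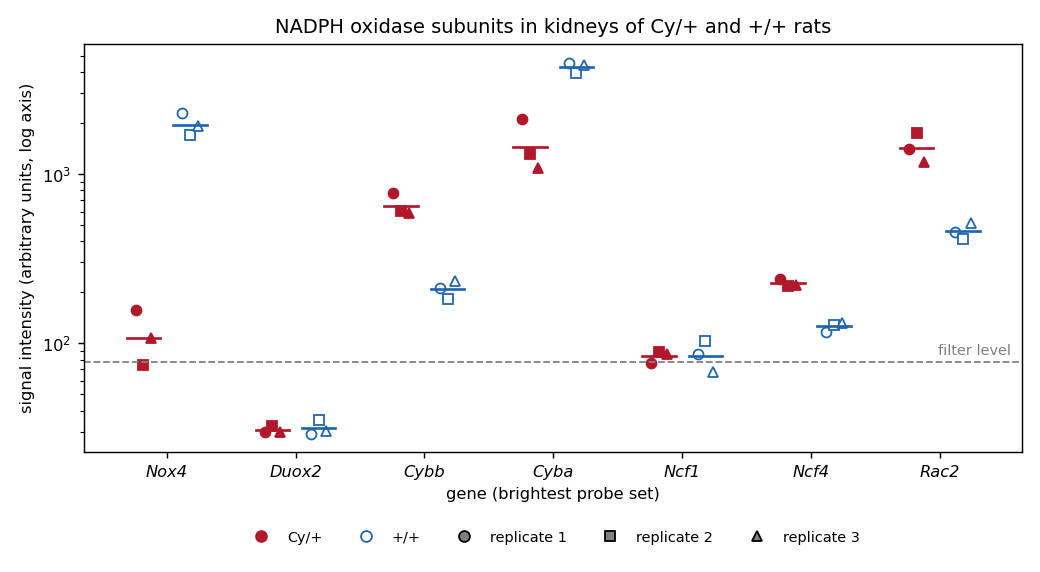
Signal intensity per array (arbitrary units, log axis) for the brightest probe set of each subunit gene, with filled red symbols for Cy/+ and open blue symbols for +/+ kidneys, a symbol shape per replicate number, a bar at the geometric mean of each genotype and a dashed line at the filter level of 77.8. Signals of different genes are not comparable; the Cy/+ symbols lie below those of +/+ for Nox4 and Cyba, above them for Cybb, Ncf4 and Rac2, and among them for Ncf1 and Duox2.

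The contrast between Nox4 and the phagocyte subunits was set out per gene. The log2 difference of Nox4 minus that of Cybb was -5.83. Minus that of Rac2 it was -5.82, minus that of Ncf4 -5.03, minus that of Ncf1 -4.17 and minus that of Cyba -2.61. Against the median of the 5 phagocyte subunits, Cyba included, which was 0.85, Nox4 lay at -5.03, and against the median of the other 4, without Cyba, at -5.43. Ncf1 lay close to the filter level in both genotypes, which limits its contrast and both medians, since they include it. Within the phagocyte oxidase the partners moved apart, since Cybb lay 3.22 above Cyba and Rac2 3.22 above Cyba on the log2 scale. In the limma fit 3 of the 6 tested subunit genes, Cybb, Ncf4 and Rac2, were called higher and 2, Nox4 and Cyba, lower, while over all 10645 genes 37.4% were called higher and 29.3% lower, 66.7% in all. The arrays of the genotypes did not overlap for 5 of the 6 tested subunit genes and for 74.6% of all genes. Since the genes were chosen on this contrast, these counts show nothing beyond the choice. Neither quantile normalization nor centring each array on its median changed the direction of these 5 genes.

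The other genes of the oxidase family and its partners were taken from a list of 13, of which 8 had a probe set of their own. Nox3, Noxa1, Duox1 and Duoxa2 were among those without one and were not analysed here. Nox1, the catalytic subunit of the colon, lay below the filter level at 50.2 ± 1.95 in Cy/+ and 60.1 ± 0.892 in +/+ kidneys, and so did Duoxa1, a maturation factor of the dual oxidases, at 72.9 ± 9.27 in Cy/+ and 70.1 ± 6.72 in +/+ kidneys (SD, n = 3 each). Of the 6 that were tested, 2 rose in Cy/+ kidneys and 2 fell, while 2 missed the threshold, with a median log2 difference of -0.04. Over all genes tested 37.4% were called higher and 29.3% lower, near the shares of this list, and the median was 0.090.

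Cybc1 encodes a chaperone of the endoplasmic reticulum that the complex of Cybb and Cyba needs for its expression. It rose to 597 ± 62.9 in Cy/+ kidneys, against 320.3 ± 16.3 in +/+ kidneys (SD, n = 3 each), with a log2 difference of 0.89 (standard error 0.11; limma, adjusted p = 0.000306). A dimmer probe set of Cybc1 rose by 0.33 (adjusted p = 0.0189 from limma). Rac1, the widely expressed Rac GTPase, rose by 0.38 (adjusted p = 0.00273 from limma), at 6144 ± 349 in Cy/+ and 4712 ± 27.5 in +/+ kidneys (SD, n = 3 each), but its dimmer probe set fell by 0.37 (adjusted p = 0.0112 from limma), so the 2 probe sets of Rac1 disagree. Rac3 fell by 0.53 (adjusted p = 0.00161 from limma) and Rap1a, a small GTPase that copurifies with the phagocyte oxidase, by 0.43 (adjusted p = 0.00325 from limma). Noxo1, the organizer of Nox1, had a log2 difference of 0.12 that did not pass (adjusted p = 0.329 from limma). Poldip2, a protein that binds p22phox and raises Nox4 activity, had one of -0.19 that did not pass (adjusted p = 0.331 from limma). A dimmer probe set of Poldip2 was 2.82-fold lower (adjusted p = 0.000185 from limma), and without Cy/+ replicate 3 the brighter one fell by 0.37 (adjusted p = 0.0283 from limma).

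Of 24 genes that switch the oxidase on or sit beside it, 18 had a probe set and 16 were tested. In Cy/+ kidneys 11 of them rose and 2 fell, while 3 missed the threshold, with a median log2 difference of 0.58. Over all genes tested 37.4% were called higher and 29.3% lower, and the median was 0.090. Prkcb, a protein kinase C that phosphorylates p47phox in leukocytes, rose to 411 ± 88.4 in Cy/+ kidneys, against 90.7 ± 6.63 in +/+ kidneys (SD, n = 3 each, log2 difference 2.16, adjusted p = 6.60e-05 from limma). Arhgdib, the leukocyte inhibitor that holds Rac GTPases in the cytosol, rose by 1.26 (adjusted p = 0.000131 from limma), and Pik3cd, a phosphoinositide kinase of leukocytes, by 1.17 (adjusted p = 0.000140 from limma). Tiam1, an exchange factor for Rac, was at least 2.29-fold higher (adjusted p = 0.000294 from limma), a bound because its +/+ mean of 62.8 lay below the filter level. The 2 lower genes were Agtr1a, the receptor for angiotensin II, a known activator of renal oxidases, with a log2 difference of -1.76 (adjusted p = 0.000372 from limma), and Prkca, with one of -0.69 (adjusted p = 0.000412 from limma). Dimmer tested probe sets of Prkcb, Pik3cd and Agtr1a passed in the same direction, and that of Agtr1a had a log2 difference of -2.67 (adjusted p = 6.50e-05 from limma). With the methods' t-test after Benjamini-Hochberg adjustment 6 of the 16 were higher and 2 lower.

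Enzymes that remove the products of the oxidases were also listed. Of 18 genes listed, 17 were tested, of which 12 fell, 4 rose and 1 missed the threshold, with a median log2 difference of -0.79, beside 29.3% lower, 37.4% higher and a median of 0.090 over all genes tested. Sod1, the cytosolic superoxide dismutase, fell to 6954 ± 1075 in Cy/+ kidneys, against 12630 ± 509 in +/+ kidneys (SD, n = 3 each, log2 difference -0.87, adjusted p = 0.000629 from limma). Gpx1, the main cytosolic glutathione peroxidase, fell by 0.80 (adjusted p = 0.000132 from limma), and the peroxiredoxin genes Prdx3 and Prdx6 fell by 0.98 and 1.10 (adjusted p = 0.000245 and 0.000449 from limma). Txnrd1, the cytosolic thioredoxin reductase, fell by 0.54 (adjusted p = 0.000600 from limma), and its dimmer probe set fell further, by 1.70 (adjusted p = 4.11e-05 from limma). Gpx2, the glutathione peroxidase of the gut epithelium, went the other way, to 2494 ± 98.2 in Cy/+ kidneys, against 139 ± 11.5 in +/+ kidneys (SD, n = 3 each), with a log2 difference of 4.17 (standard error 0.09; limma, adjusted p = 2.31e-06). The other higher ones were Gpx7, Gpx8 and Prdx4.

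**Figure D2:**
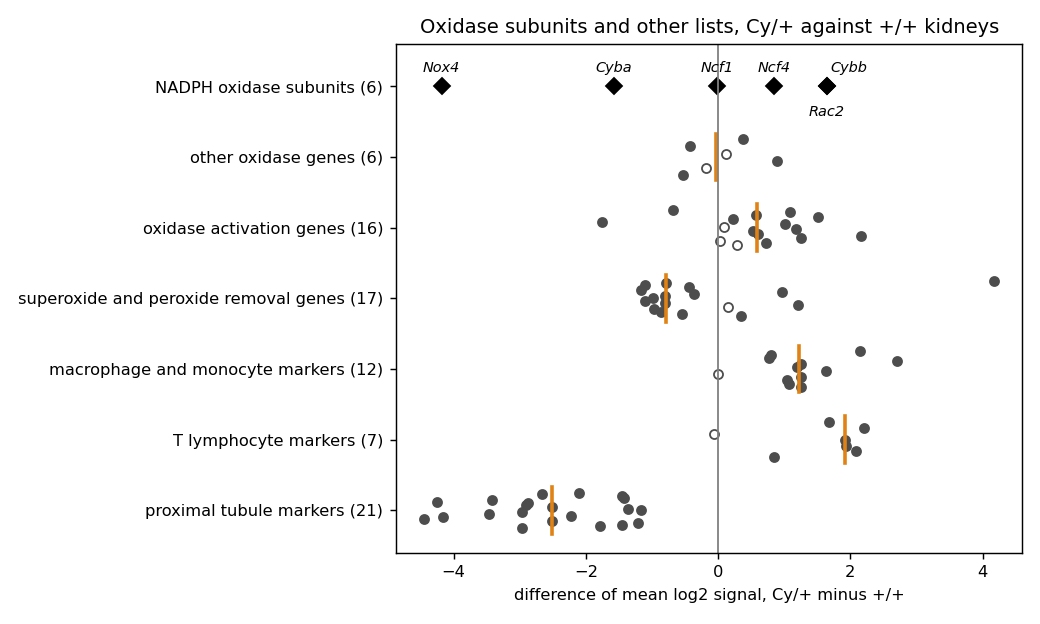
Difference of mean log2 signal, Cy/+ minus +/+ kidneys, of the 6 subunit genes that passed the filter (black diamonds, no test) and of the tested genes of 6 lists (circles, filled where limma's adjusted p was under 0.05), with the number of genes in brackets and an orange bar at the median of each list; genes with a mean below the filter level in 1 genotype, 4 of them T lymphocyte markers, are drawn at their measured difference, not at their bound. Nox4 at -4.18 lies in the range of the proximal tubule markers, which runs from -4.44 to -1.16. Cybb and Rac2 at 1.65 and 1.64 lie in the ranges of the macrophage and T lymphocyte markers and of the activation and removal genes. The ranges of the pan-leukocyte, fibroblast and pericyte, and collecting duct markers, not drawn here, hold these values too.

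Markers of cell types that carry these subunits moved in the same arrays, and their part in the subunit differences was not tested. All 21 tested markers of the proximal tubule were lower in Cy/+ kidneys, with a median log2 difference of -2.51, and the summed signal of the 21 was 23586 to 56704 in Cy/+ and 175965 to 186836 in +/+ kidneys. Slc34a1, Slc34a3 and Slc22a6, transporters of that segment, had log2 differences of -2.96, -4.25 and -3.42. All 21 markers with a probe set passed the filter. Of 12 tested markers of macrophages and monocytes 11 were higher and none was lower, with a median of 1.22, and the summed signal of the 14 with a probe set was 15248 to 23045 in Cy/+ and 7862 to 8960 in +/+ kidneys. A large part of that sum was Lyz2, at 8749 to 11300 in Cy/+ and 4452 to 5243 in +/+ kidneys. Cd68, Cd14 and Csf1r rose by 1.26, 2.15 and 1.07, and Cd163 and Ms4a7 did not pass the filter. Itgam had a log2 difference of 0.00. At 70.4 to 93.3 in Cy/+ and 72.0 to 90.8 in +/+ kidneys it lay close to the filter level, so a difference of Itgam was not detectable here.

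All 7 tested pan-leukocyte markers were higher, with a median of 1.41, and the summed signal of the 8 with a probe set was 5759 to 8494 in Cy/+ and 2265 to 2454 in +/+ kidneys. Of 7 tested T lymphocyte markers 6 were higher, and Cd4 was not, at -0.06. The +/+ means of Cd3d, Cd3e, Cd3g and Cd247 lay below the filter level, so these were at least 2.50-, 3.11-, 3.30- and 2.80-fold higher, and with them at their bounds the median of the list was 1.48. The summed signal of the 9 was 1322 to 2563 in Cy/+ and 633 to 699 in +/+ kidneys, and Cd5 and Cd8a did not pass the filter. The B lymphocyte markers Cd79b, Blk and Ms4a1 did not pass it either, with sums of 154 to 300 in Cy/+ and 144 to 149 in +/+ kidneys. Of 7 neutrophil markers with a probe set, 5 did not pass it, S100a8 among them at 19.1 to 31.8 in Cy/+ and 17.1 to 20.8 in +/+ kidneys. The other neutrophil markers, S100a9 and Lcn2, the second of which injured tubules also express, were higher. S100a9 was at least 1.46-fold higher, a bound because its +/+ mean of 56.5 lay below the filter level, as did 1 Cy/+ sample. The neutrophil sum, 4662 to 5286 in Cy/+ and 314 to 373 in +/+ kidneys, was mostly Lcn2, at 4296 to 4998 in Cy/+ and 110.0 to 168 in +/+ kidneys.

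Fibroblast and pericyte markers had a median log2 difference of 1.35, and 6 of the 8 tested rose while the others missed the threshold. Col1a1, a collagen gene, rose by 3.98 (adjusted p = 2.08e-05 from limma). The summed signal of the 9 with a probe set was 19552 to 38007 in Cy/+ and 7932 to 9212 in +/+ kidneys, and Postn did not pass the filter. Endothelial markers had a median of -0.97, and 5 of the 8 tested fell while the others missed the threshold. Their summed signal was 3302 to 4568 in Cy/+ and 6933 to 7451 in +/+ kidneys. Vwf and Emcn fell by 1.94 and 1.58 (adjusted p = 8.32e-05 and 0.000193 from limma). Pecam1, the first endothelial marker listed, missed the threshold at -0.12 (adjusted p = 0.347 from limma), and so did Tek at -0.22 and Tie1 at -0.10. Among the 11 tested markers of the collecting duct the median was 0.24, Aqp4 rose, Slc26a4 fell and 9 missed the threshold. The summed signal of the 12 with a probe set was 6592 to 21742 in Cy/+ and 8327 to 9826 in +/+ kidneys.

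The Cy/+ kidneys varied more among themselves than the +/+ kidneys for Nox4, Cyba and Rac2 and less for Ncf1, with little difference in spread for Cybb and Ncf4. A wider spread was not particular to the subunits, since across all probe sets Cy/+ arrays correlated at 0.982 to 0.99 and +/+ arrays at 0.997. With 3 arrays per genotype these spreads are a description. For Nox4 the SD of the log2 signal was 0.54 in Cy/+ and 0.22 in +/+ kidneys. Cyba had an SD of 0.50 in Cy/+ and 0.11 in +/+ kidneys. That of Cybb was 0.22 in Cy/+ and 0.18 in +/+ kidneys. Rac2 had 0.28 in Cy/+ and 0.16 in +/+ kidneys. The subunits did not share 1 order over the Cy/+ kidneys. Nox4 was highest in Cy/+ replicate 1 and lowest in replicate 2, Cyba and Cybb were highest in replicate 1 and lowest in replicate 3, and Rac2 was highest in replicate 2 and lowest in replicate 3. Ncf4, within a narrow range, was highest in replicate 1. Between replicates 2 and 3 Ncf4, at 219 and 219.8, and Cybb, at 603 and 589, differed little. Ncf1, close to the filter level, was highest in replicate 2 and lowest in replicate 1, the order of the median of the collecting duct markers.

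Among 21 proximal tubule markers 14 were highest in Cy/+ replicate 1 and 18 lowest in replicate 2, as Nox4 was. All 12 macrophage and monocyte markers were highest in replicate 1 and 10 were lowest in replicate 3, as Cyba and Cybb were, and the medians of the endothelial and of the fibroblast and pericyte markers had that order too. Of 7 T lymphocyte markers 6 were highest in replicate 2 and 7 lowest in replicate 3, as Rac2 was, and the median of the pan-leukocyte markers had the same order. Over all 10645 genes 41.5% were highest in replicate 1, 30.7% highest in replicate 2, 35.8% lowest in replicate 2 and 29.2% lowest in replicate 3. These orders were not limited to cell type markers. The median of the removal genes was lowest in replicate 2 too, as were 12 of the 17 tested. The median of the activation genes had the order of Cyba and Cybb, and that of the other oxidase genes the order of Rac2. With 3 arrays an order is only a description.

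**Figure D3:**
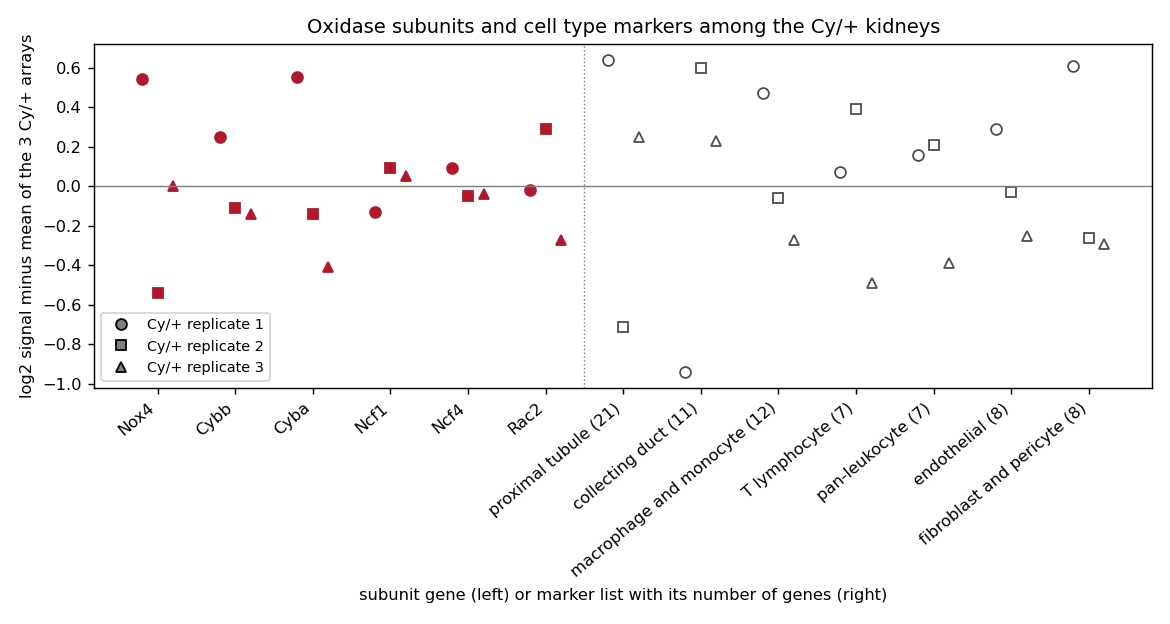
Log2 signal of each Cy/+ array minus the mean of the 3 Cy/+ arrays, for the 6 subunit genes that passed the filter (filled red symbols) and as the median over the tested genes of 7 marker lists (open symbols, number of genes in brackets), with a symbol shape per replicate. Replicate 2 is lowest for Nox4 (-0.54) and the proximal tubule markers (-0.71), and replicate 3 is lowest for Cyba, Cybb and Rac2 and for the macrophage and T lymphocyte markers.

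The genes whose signals ran closest to those of Nox4 and of Cybb were found by the root-mean-square difference over the 6 arrays, after each gene's own mean log2 signal was subtracted, among 10639 other genes. For Nox4 they were Slc34a3, a phosphate transporter of the proximal tubule (0.187), Dnah7, an axonemal dynein heavy chain (0.200), and Kcnj15, a potassium channel (0.205). Slc34a3 gave 284, 132 and 134 in Cy/+ kidneys, against 3497, 2933 and 3345 in +/+ kidneys. Its lack of overlap between the genotypes follows from its choice as the gene nearest to Nox4. The Cy/+ mean of Dnah7, 51.0, lay below the filter level. For Cybb they were Cped1 (0.078), Prnp, the prion protein gene (0.081), and Lmnb1, the gene of a nuclear lamin (0.082). Prnp gave 2872, 2118 and 1947 in Cy/+ kidneys, against 795, 720.3 and 839.5 in +/+ kidneys. These distances are a description over samples that form 2 separate groups.

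Spiked-in controls, which hold no kidney RNA, were also brighter in Cy/+ samples. For all 18 hybridization control probe sets the dimmest Cy/+ array exceeded the brightest +/+ array, by a median of 1.83-fold between the group means of log2 signal. The same held for all 24 poly-A control probe sets, where the median was 3.82-fold. Beta-actin had a 3′ over 5′ probe set ratio of 3.22 ± 0.265 in Cy/+ and 1.51 ± 0.00568 in +/+ kidneys, while for Gapdh this ratio came to 1.85 ± 0.103 in Cy/+ and 1.18 ± 0.0360 in +/+ kidneys (SD, n = 3 each). Their part in the subunit differences was not tested. Arrays correlated at 0.982 to 0.990 among Cy/+ kidneys and at 0.997 among +/+ kidneys (Pearson r of log2 signals across probe sets, which are not independent replicates).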

How the data were processed

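Total RNA of kidney tissue was labeled by the authors as biotinylated cRNA from 5 μg and hybridized to rat genome oligonucleotide arrays, which were read with GCOS. The submitters' processing notes name MAS5. The deposited values are linear signal intensities, 1 per probe set, from 10.65 to 32240, without the detection calls. Mean log2 values of the arrays were nearly equal (7.184 to 7.191), but the exact scaling is not settled by the values. The number of arrays limits the precision.

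Intensities were taken to log2 without a pseudocount. Of 31099 probe sets, 57 controls were left out, and the 18625 with a mean log2 signal at or above 6.28, the 40th percentile, were fitted with limma 3.58.1 in R 4.3.3 (lmFit, eBayes with an intensity trend, no covariate), with Benjamini-Hochberg adjustment over all of them. The fit was run on simulated data with independent noise in which few probe sets changed. Most genes differ in the real arrays, so that run does not show how the fit performs on them. Symbols came from the platform annotation, updated by Entrez gene ID with a table of GRCr8. Of the probe sets 20832 had 1 symbol (20764 updated), 436 several, which named no gene, and 9831 none, which are unnamed here. Folds against a mean below the filter level are bounds, with each dim array raised to that level.

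The members and lists were chosen with earlier results of these data known. The genes named were all members, all other oxidase genes, the 6 of smallest adjusted p in the lists of activation and of removal genes, the first 3 tested markers of the main lists, and the 3 nearest patterns of Nox4 and Cybb. Any further gene was picked with its values in view. Alternatives changed the normalization, pseudocount, filter, variance trend, array weights, test, replicate block, choice of probe set and samples.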

Additional observations from a re-analysis of the deposited data

Results flagged for a closer look

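Control probe sets outside the comparison of genes carried a difference between the genotypes. The median fold, Cy/+ over +/+, was 1.83 for the hybridization controls and 3.82 for the poly-A controls. The 3′ to 5′ ratio was 3.22 for beta-actin in Cy/+ kidneys, against 1.51 in +/+ kidneys, and 1.85 for Gapdh in Cy/+ kidneys, against 1.18 in +/+ kidneys. With 3 samples per genotype no single sample was tested for standing apart.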

How the results depend on the processing

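The 5 subunit genes with separated arrays kept their direction under every alternative run, quantile normalization, centring on the median and each array left out among them. Leaving out each array in turn gave a log2 difference of -4.45 to -3.91 for Nox4, -1.85 to -1.37 for Cyba, 1.52 to 1.73 for Cybb, 0.80 to 0.89 for Ncf4, 1.49 to 1.78 for Rac2 and -5.26 to -4.78 for Nox4 relative to the phagocyte subunits. Values that moved by more than the replicate SD were those of Cyba (-0.73) and Cybb (0.80) when the probe sets of a gene were averaged, which brings in a probe set below the filter level, and of Ncf4 (0.75) with quantile normalization, where the cause was not tested. With averaged probe sets 1 of the 5 other oxidase genes then tested was higher, since the 2 probe sets of Rac1 oppose each other (0.00, adjusted p = 0.959 from limma), and 3 were lower, since Poldip2 then passed (-0.84, adjusted p = 0.00327 from limma). With the filter at the 60th percentile 6 activation genes were higher and 1 was lower of the 10 then tested, and with the methods' t-test 6 were higher. Centring lowered every log2 difference by 0.07. Pairing by replicate number was not evident. Deviations of equally numbered samples correlated at 0.147, -0.11 and -0.151, and those of differently numbered ones at -0.116 to 0.235. So few samples cannot exclude a pairing. With the replicate number as a block 6293 probe sets were higher and 5340 lower, against 6661 and 5830 without it. In that fit 10 activation genes and 3 removal genes were higher. The counts of subunits and of other oxidase genes were 3 and 2 higher and 2 and 2 lower, as without the block. Probe sets near the filter level, such as those of Ncf1, limit what can be detected.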
